A study of Arabidopsis thaliana with 32 samples.

Results

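The genes described here ran against the domains fused to HY5: at 1.5 h of light they were lower than in the hy5 mutant where HY5 carried an activation domain, and higher where it carried a repression motif. Members were chosen on the mean of log2(CPM + 1) per group, where CPM is the authors' reads scaled to library size. A gene qualified with VP16 minus hy5 of at most -0.5 and SRDX minus hy5 of at least 0.5 at 1.5 h. Of 19685 genes, 1589 met the first condition, 1127 the second and 222 both, and the 200 with the largest SRDX minus VP16 were kept. The values from 1.5 h in VP16, SRDX and hy5 are therefore a description, with no test, and over the 200 members they had medians of -0.83 for VP16 minus hy5 and 1.01 for SRDX minus hy5. The other groups were not used in the choice, but the choice was made with earlier results of these data known.

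HY5 is a bZIP transcription factor that promotes seedling development in light and binds ACGT-containing DNA elements. VP16 is an activation domain from a herpes virus, and SRDX is a short repression motif of the EAR type from plants. Arabidopsis seedlings make antimicrobial compounds from tryptophan, and defence against biotrophic pathogens runs through salicylic acid and pipecolic acid, with WRKY factors binding W-box elements in many of the induced genes.

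Stranded mRNA was sequenced from whole Arabidopsis seedlings, about 40 per sample, in 32 libraries of 12 groups. The SRDX, VP16 and OX lines express 35S:FLASH-HY5-SRDX, 35S:FLASH-HY5-VP16 and 35S:FLASH-HY5, each a tagged HY5 under the viral 35S promoter in most tissues, and all 3 are in the hy5 mutant background. The references are hy5 itself, whose allele is not given in the sources used here, and the Columbia wild type, Col. The number of independent transgenic lines behind each name is not given either. All seedlings received 1 h of white light to induce germination and 3 days of darkness at 21 °C, and the light groups then received 1.5 h or 4 h of simulated white light at 100 µmol m−2 s−1. Each group of VP16, OX and Col had 3 libraries, as did hy5 in darkness and after 1.5 h. Each SRDX group, 4 h included, had 2, and so did hy5 at 4 h. Nothing says whether replicates were separate cultures, so p-values measure only the spread between these samples, which may be technical.

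The HY5 transcript, transgene included, averaged 1026 CPM in SRDX, 2338 in VP16, 14279 in OX, 24.6 in Col and 21.7 in hy5 in the dark. At 1.5 h it averaged 783 CPM in SRDX, 2264 in VP16, 9175 in OX, 216 in Col and 25.1 in hy5. The 3 transgenic lines thus stood apart from hy5 as labelled, with OX the highest, and dark Col lay close to hy5. Libraries held 7499581 to 21420680 reads in genes, so that 1 read was worth 0.0457 to 0.131 CPM. Of the 200 members, 196 reached 1 CPM in at least 2 libraries outside SRDX, and 129 averaged at least 5 CPM over all libraries, against 15009 of all genes.

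In the dark, the direction of the choice was seen again in both fusion lines. SRDX was higher than hy5 in 137 members and lower in 0 (limma, Benjamini-Hochberg adjusted p below 0.05), against 5.19% of all genes called higher and 4.52% called lower. At an unadjusted p below 0.05 the count of members lower was also 0, as it was with edgeR and with DESeq2. The median difference was 0.87 on the log2(CPM + 1) scale over the members and 0.01 over all genes. VP16 was lower than hy5 in 124 members and higher in 2, against 11.1% of all genes called lower and 11.1% called higher, with a median of -0.61 over the members and -0.00 over all genes. VP16 set directly against SRDX was lower in 182 members and higher in 0, against 10.3% and 9.73% of all genes, with a median of -1.49. That comparison too gave 0 members higher at an unadjusted p below 0.05 and with edgeR and DESeq2. In whole seedlings, fewer cells of a type and less RNA per cell cannot be told apart.

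Tissue markers also differed between these dark groups, and none of the listed genes is a member. The 9 green cotyledon markers summed to 14537 to 23080 CPM in dark VP16, 8132 to 10700 CPM in dark SRDX and 11011 to 12996 CPM in dark hy5. Against hy5, 6 of 9 were called higher in VP16 and 3 of 9 lower in SRDX, and against SRDX 7 of 9 were higher in VP16. Of 10 root hair markers, VP16 was higher than hy5 in 7 and lower in 1 and higher than SRDX in 8. Their sums were 61.0 to 107 CPM in VP16, 50.04 to 78.6 CPM in SRDX and 88.2 to 109 CPM in hy5, so that the sum was not higher in VP16 than in hy5. Of 8 endodermis markers, 5 were lower in VP16 and 2 in SRDX than in hy5, with sums of 717 to 814 CPM in VP16, 673 to 797 CPM in SRDX and 904 to 1017 CPM in hy5. The 2 apical meristem markers measured were called in neither line. None of these markers was at 0 in every library of these groups, and their part in the members' differences was not tested.

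At 4 h of light, where only SRDX and hy5 were sampled, SRDX was higher than hy5 in 161 members and lower in 0, against 8.24% of all genes called higher and 9.65% called lower. Again 0 members were lower at an unadjusted p below 0.05, with edgeR or with DESeq2. The median difference was 1.24. Of the members called higher in SRDX, 115 were called in both the dark and 4 h. That is 83.9% of the dark calls and 71.4% of the 4 h calls. The same overlap over all genes was not computed, so nothing particular to the members is read from it. The 5 members called in none of the 3 tests of SRDX and VP16 against hy5 were AT2G29220, AT3G02840, MPK11, AT2G25200 and AT2G28400. How many of all genes were called in none of these tests was not computed, so this count is a description. In the authors' deposited table of log2 fold changes, SRDX over hy5 was above 0 for 191 members in the dark and 195 at 4 h. VP16 over hy5 was below 0 for 186 in the dark. The member medians were 1.04, 1.41 and -0.91, against 0.01, -0.02 and -0.00 over all genes. The share of all genes on each side was not computed, and that table rests on the same libraries.

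**Figure D1:**
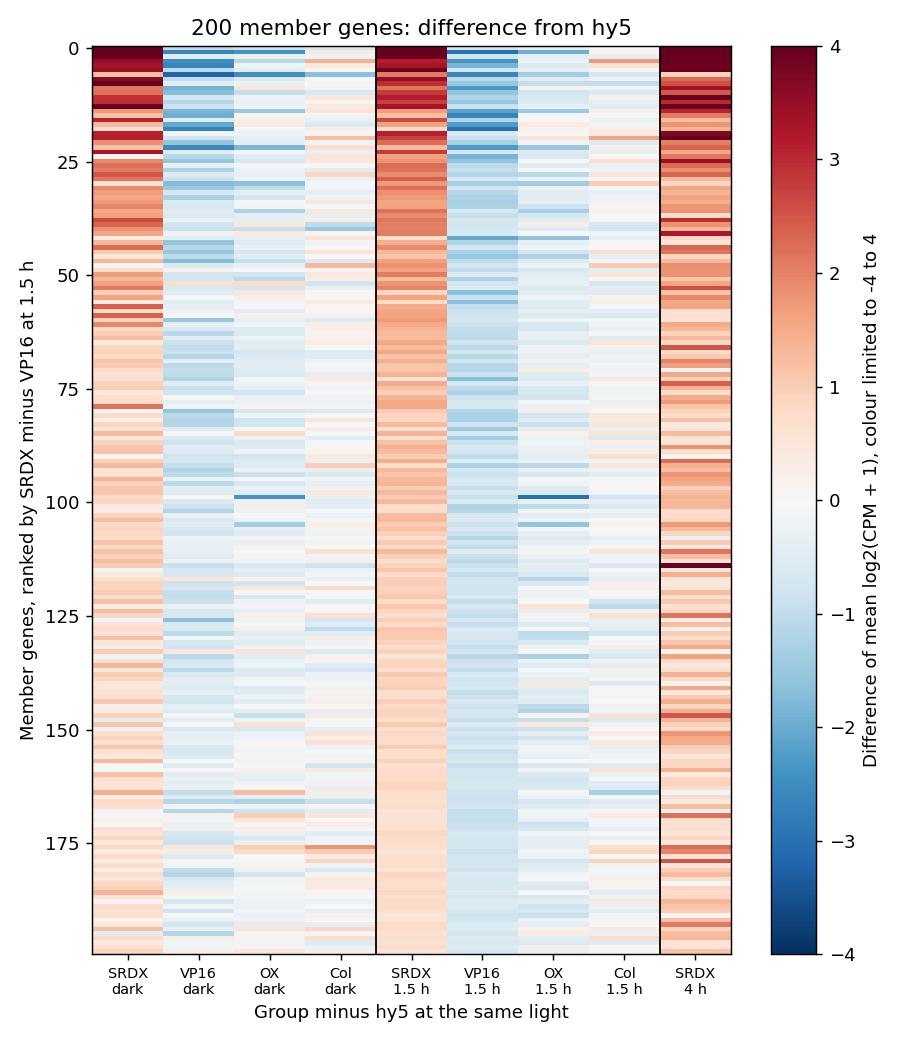
Each row is 1 of the 200 member genes, ranked by SRDX minus VP16 at 1.5 h, and each column is a group minus hy5 at the same light, as the difference of mean log2(CPM + 1), with colours limited to -4 and 4. The 1.5 h columns of SRDX and VP16 are fixed by the choice, while in the dark column SRDX is called higher than hy5 for 137 members and VP16 is called lower for 124.

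The thresholds cut through a continuous range. The members nearest inside the VP16 threshold were AT4G04460, AT5G23830 and AT3G19615, at VP16 minus hy5 of -0.505, -0.510 and -0.511. Nearest outside were ESK1, AT1G61420 and AT1G63560, at -0.499, -0.499 and -0.498, and AT1G63560 had SRDX minus hy5 of 5.23. At the SRDX threshold CML43, AT1G72100 and AT5G40450 lay inside at 0.505, 0.521 and 0.524, and CMPG1, AT5G43540 and AT1G60740 outside at 0.499, 0.498 and 0.497. At the limit of 200 genes, FRU, TPX2 and FRA8 were last inside with SRDX minus VP16 of 1.256, 1.256 and 1.257, and AT5G44920, AT5G57010 and AT3G52748 first outside with 1.240, 1.234 and 1.232. No gap in these values separated members from other genes.

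Among the members, 96 were placed in 13 roles from their annotation, and the steps from tryptophan to defence compounds held the largest SRDX differences. All 7 members of this role were higher in SRDX than in hy5 both in the dark and at 4 h, with medians of 4.08 and 3.85, and 6 of 7 were lower in VP16 in the dark, with a median of -0.46. CYP71A12, the cytochrome P450 that turns indole-3-acetaldoxime into indolic nitriles, ranked first in the choice. It had 330.0 and 293 CPM in dark SRDX, 0.10, 0.0880 and 0 CPM in dark VP16 and 1.31, 1.09 and 1.08 CPM in dark hy5. Both SRDX libraries were above every other library and the 3 VP16 libraries were below all hy5 libraries, with no overlap. The difference from hy5 was 7.18 ± 0.20 for SRDX (SE, adjusted p = 2.0e-21) and -1.02 ± 0.18 for VP16 (adjusted p = 9.5e-05). At 4 h it had 173 and 177 CPM in SRDX and 0.428 and 1.03 CPM in hy5, a difference of 6.69 ± 0.22, adjusted p = 3.8e-19. At 1.5 h, where the choice was made, it had 335 and 220.0 CPM in SRDX, 0, 0.0587 and 0.0657 CPM in VP16, 0.347, 0.388 and 0.648 CPM in OX, 0.392, 0.822 and 0.582 CPM in Col and 1.21, 0.395 and 0.742 CPM in hy5. The 2 SRDX libraries were far above the other groups there too. CYP71A12 has a close paralog, so its separate value is uncertain.

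CYP82C2, which hydroxylates the indole carbonyl nitrile made through CYP71A12, had 183 and 140.3 CPM in dark SRDX and 0 in all 3 dark VP16 libraries. Against a floor of 3 reads per library, dark VP16 was at least 572-fold lower than dark SRDX. Dark hy5 had 0.0768, 0.636 and 0.332 CPM, and the VP16 difference from it was not called (-0.41 ± 0.20, adjusted p = 0.14). AT1G26380, annotated as an FAD-binding berberine-type enzyme and known from the same cyanogenic pathway, had 25.04 and 26.1 CPM in dark SRDX, 0, 0.0880 and 0 CPM in dark VP16 and 0.230, 0.545 and 0.497 CPM in dark hy5. The SRDX libraries were far above all others and each VP16 library was below each hy5 library. The differences from hy5 were 4.23 ± 0.18 in SRDX (adjusted p = 4.5e-17) and -0.46 ± 0.16 in VP16 (adjusted p = 0.035). AT1G26380 lost its dark VP16 call without dark VP16 replicate 1 or 3 or dark hy5 replicate 2 or 3 (adjusted p = 0.088 to 0.13).

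CYP79B2 and CYP79B3 convert tryptophan to indole-3-acetaldoxime, the entry to both camalexin and indole glucosinolates. CYP79B2 had 62.6 and 60.7 CPM in dark SRDX, 13.1, 17.1 and 16.2 CPM in dark VP16 and 21.7, 23.1 and 18.4 CPM in dark hy5. All SRDX values lay above hy5 (1.51 ± 0.16, adjusted p = 1.2e-07) and all VP16 values below it (-0.42 ± 0.15, adjusted p = 0.038). At 1.5 h, where the choice was made, it had 76.9 and 71.8 CPM in SRDX, 10.8, 8.69 and 8.80 CPM in VP16, 5.96, 4.96 and 5.83 CPM in OX, 14.6, 19.6 and 17.2 CPM in Col and 12.1, 18.18 and 15.9 CPM in hy5. Again SRDX was the highest and OX the lowest of these groups. For CYP79B3 the differences in the dark were 0.74 ± 0.17, adjusted p = 0.0060 in SRDX and -0.45 ± 0.16, adjusted p = 0.038 in VP16, again without overlap between libraries. IGMT1, an O-methyltransferase of indole glucosinolates, had 187 and 168 CPM in dark SRDX, 1.90, 3.78 and 0.854 CPM in dark VP16 and 14.6, 15.0 and 22.1 CPM in dark hy5, with differences of 3.31 ± 0.28 and -2.603 ± 0.25. GSTF6, a glutathione S-transferase known from camalexin synthesis, differed by 4.08 ± 0.20, adjusted p = 2.5e-15 in SRDX and -0.85 ± 0.18, adjusted p = 0.00076 in VP16. Its neighbour GSTF7 differed by 2.96 ± 0.19 and -1.13 ± 0.17, both called, and reads of this close pair may be shared. CYP79B2 lost its dark VP16 call without dark VP16 replicate 1 or 3 or dark hy5 replicate 1 or 2 (adjusted p = 0.055 to 0.20). CYP79B3 lost its dark SRDX call without dark SRDX replicate 2 (adjusted p = 0.12). CYP79B3 lost its dark VP16 call without dark VP16 replicate 1, 2 or 3 or dark hy5 replicate 1, 2 or 3 (adjusted p = 0.050 to 0.13).

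Upstream sequence is shown for 4 genes of these pathways, among the 20 members with the largest differences, so that the ACGT elements HY5 can bind and the W-box letters can be seen together. Each run holds 300 bases before the annotated gene start, 5′ to 3′ on the strand of the gene, from RefSeq for TAIR10.1, and capitals mark the ACGT core, the W-box form TTGACC and the form TTGACT on either strand. They lie at chr4:15462050-15462349 on the plus strand for CYP82C2, chr1:9128569-9128868 on the minus strand for AT1G26380, chr1:659981-660280 on the minus strand for GSTF7, and chr2:13101372-13101671 on the minus strand for CYP71A12.
CYP82C2: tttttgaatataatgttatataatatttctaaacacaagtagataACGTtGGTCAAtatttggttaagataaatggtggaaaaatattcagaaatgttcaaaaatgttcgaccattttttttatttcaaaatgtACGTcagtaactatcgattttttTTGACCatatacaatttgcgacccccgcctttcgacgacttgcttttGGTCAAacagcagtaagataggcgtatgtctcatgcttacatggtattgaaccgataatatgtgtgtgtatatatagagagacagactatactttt
AT1G26380: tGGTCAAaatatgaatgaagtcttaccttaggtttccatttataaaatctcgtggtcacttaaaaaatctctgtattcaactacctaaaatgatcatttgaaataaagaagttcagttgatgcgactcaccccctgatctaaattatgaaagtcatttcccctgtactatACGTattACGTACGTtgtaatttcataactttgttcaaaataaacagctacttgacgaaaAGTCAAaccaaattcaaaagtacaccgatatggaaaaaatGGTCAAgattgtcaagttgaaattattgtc
GSTF7: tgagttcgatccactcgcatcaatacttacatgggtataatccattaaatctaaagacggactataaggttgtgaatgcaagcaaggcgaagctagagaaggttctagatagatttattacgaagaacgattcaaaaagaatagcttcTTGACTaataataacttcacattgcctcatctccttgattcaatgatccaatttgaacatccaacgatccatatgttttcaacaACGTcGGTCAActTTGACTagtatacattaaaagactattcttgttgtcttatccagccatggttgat
CYP71A12: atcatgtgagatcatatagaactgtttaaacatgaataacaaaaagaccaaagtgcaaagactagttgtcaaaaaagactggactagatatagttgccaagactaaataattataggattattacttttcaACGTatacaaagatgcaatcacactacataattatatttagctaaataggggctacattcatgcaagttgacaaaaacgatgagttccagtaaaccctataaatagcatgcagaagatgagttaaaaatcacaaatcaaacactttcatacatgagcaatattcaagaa

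The CYP82C2 run holds 3 TTGACC and 2 ACGT, the AT1G26380 run 2 TTGACC, 1 TTGACT and 3 ACGT, and the GSTF7 run 1 TTGACC, 2 TTGACT and 1 ACGT. None of the 4 runs holds the G-box CACGTG. Among the 20 members with the largest differences only GSTF6, whose run is not shown, holds it, with 1 CACGTG and 3 ACGT. Of these 20, 10 hold either W-box form, and the 4 runs shown do not stand for all 20. CYP71A12, the member with the largest difference, holds 1 ACGT and neither W-box form. Over all 200 members, 8.5% of these windows hold the G-box CACGTG and 51.5% hold ACGT, against 8.21% and 49.5% of 19581 windows of the same length, all read on both strands. Other forms with ACGT differed in direction. CACGTT is in 10.5% of member windows and 8.67% of all, and CACGTC in 2.5% and 6.98%. The W-box letters TTGACC or TTGACT are in 108 member windows, 54% of them, against 32.1% of all. TTGACC alone is in 26.5% of member windows and 14.0% of all, and TTGACT alone in 37.5% and 21.6%. ACGT lies inside CACGTG, and a W-box form can share no more than an end letter with ACGT or with another W-box form. These matches are a description of letters, and binding was not measured.

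The FAD-dependent berberine-bridge role held 5 more members, 3 of them in 1 run with AT1G26380 on chromosome 1. All 5 were higher in SRDX than in hy5 in the dark, with a median of 2.21, and 4 of 5 at 4 h, with a median of 0.89. AT1G26390 had 23.9 and 26.6 CPM in dark SRDX and 0.307, 1.36 and 1.99 CPM in dark hy5, and 8.0 and 7.14 CPM in SRDX and 0.714 and 0.824 CPM in hy5 at 4 h. SRDX was above hy5 without overlap at both times. The enzymes of this run are close paralogs, and reads could be shared among them. PXMT1, annotated as an S-adenosylmethionine-dependent methyltransferase and placed in none of the roles, had 591 and 569 CPM in dark SRDX, 1.5, 2.37 and 1.14 CPM in dark VP16 and 12.6, 16.1 and 18.1 CPM in dark hy5. Both lines stood apart from hy5 without overlap, at 5.14 ± 0.20 in SRDX (adjusted p = 5.4e-18) and -2.65 ± 0.18 in VP16 (adjusted p = 3.6e-12). At 1.5 h, where the choice was made, it had 501 and 438 CPM in SRDX, 1.69, 1.12 and 1.18 CPM in VP16, 3.95, 4.03 and 3.48 CPM in OX, 16.1, 18.4 and 21.7 CPM in Col and 16.7, 16.9 and 18.0 CPM in hy5. At 4 h SRDX had 639 and 622 CPM and hy5 11.3 and 15.0 CPM, so that SRDX was the highest at each time.

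**Figure D2:**
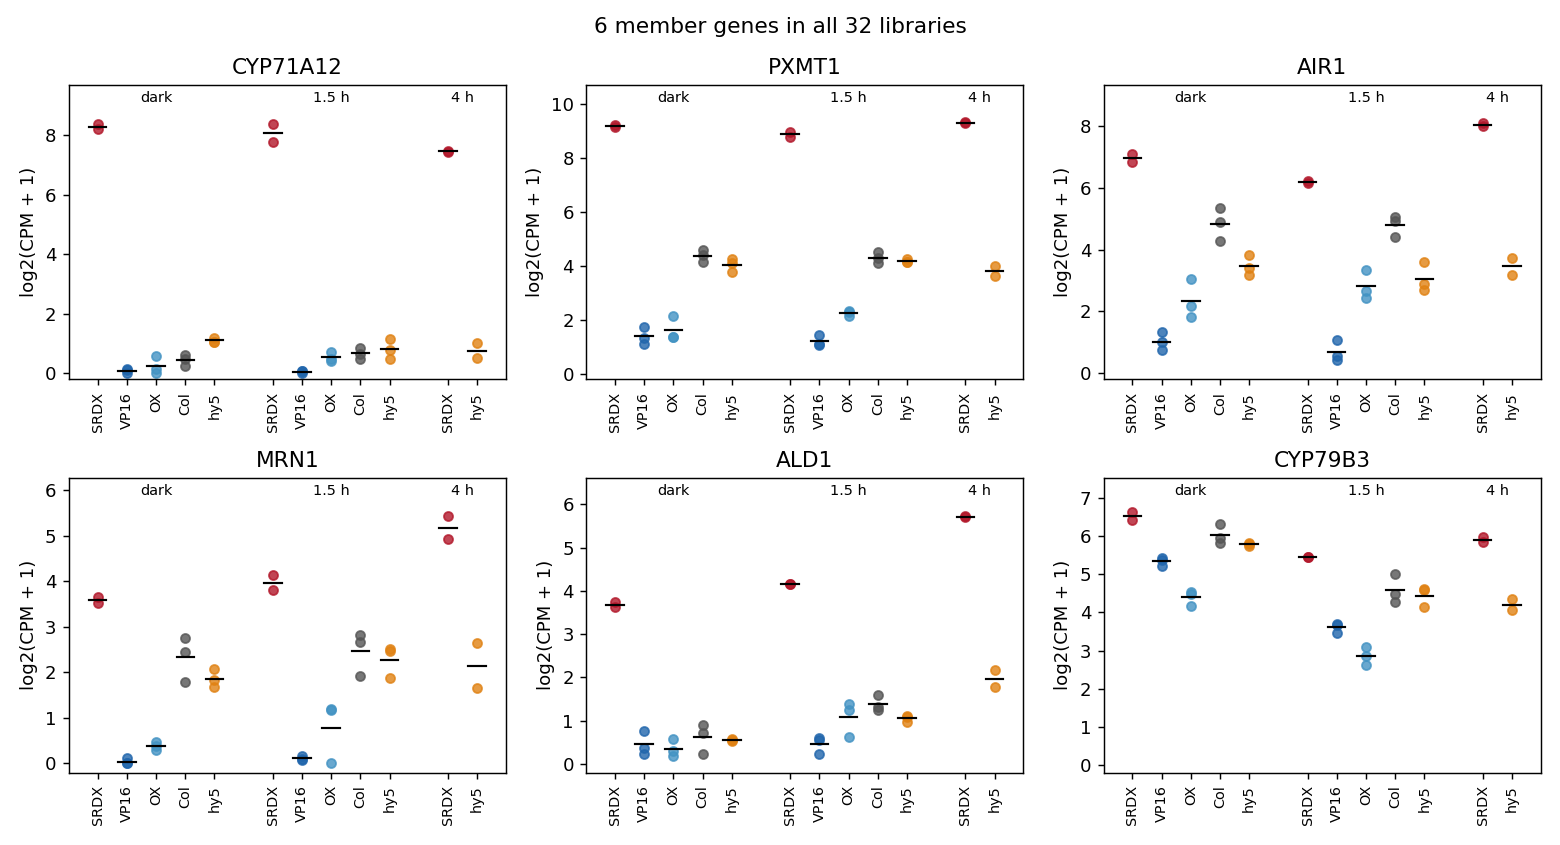
Each point is log2(CPM + 1) in 1 library and each bar a group mean, for 6 members in darkness, after 1.5 h and after 4 h. The SRDX libraries lie above all others for CYP71A12, PXMT1, AIR1, MRN1 and ALD1, and for CYP79B3 at each time, while the dark OX libraries of CYP79B3 lie below all other dark libraries.

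The role with the lowest dark VP16 median joined AIR1, a small lipid-transfer-like protein first found in auxin-treated root cultures, with MLP-like and germin-like proteins. In dark VP16, 7 of 9 were lower than in hy5, with a median of -1.72, and in SRDX 8 of 9 were higher in the dark and 8 of 9 at 4 h, with medians of 2.14 and 2.46. AIR1 had 112 and 136 CPM in dark SRDX, 1.0, 1.5 and 0.664 CPM in dark VP16 and 9.52, 8.0 and 13.1 CPM in dark hy5. The 3 groups did not overlap, and the differences were 3.501 ± 0.32 for SRDX (adjusted p = 4.1e-09) and -2.44 ± 0.29 for VP16 (adjusted p = 2.5e-07). At 1.5 h, where the choice was made, it had 73.7 and 70.7 CPM in SRDX, 1.11, 0.352 and 0.460 CPM in VP16, 4.44, 5.27 and 9.23 CPM in OX, 32.2, 29.6 and 20.1 CPM in Col and 6.35, 5.48 and 11.1 CPM in hy5. SRDX was the highest of these groups, and Col was above hy5. AT5G38910, a cupin of the germin-like family, was at 0 in all 3 dark VP16 libraries, against 6.60, 8.64 and 9.45 CPM in dark hy5, at least 29.1-fold lower on the floor of 3 reads per library. In dark SRDX it had 21.6 and 19.5 CPM, a difference of 1.23 ± 0.16 from hy5 (adjusted p = 4.1e-06). MLP34, the most abundant of the role, had 309.9 and 331 CPM in dark SRDX, 29.5, 46.5 and 32.8 CPM in dark VP16 and 137, 142 and 146 CPM in dark hy5, with no overlap and differences of 1.17 ± 0.14 and -1.96 ± 0.12. MLP328 and MLP329 are adjacent paralogs whose separate values are uncertain.

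Members from 2 triterpene gene clusters were 4. Marneral synthase, MRN1, makes marneral and CYP71A16 oxidises it, and the P450 CYP708A2 and the acyltransferase AT5G47950 belong to the thalianol cluster. All 4 were higher in SRDX than in hy5 in the dark and at 4 h, with medians of 0.82 and 1.91, and 2 of 4 were lower in dark VP16. CYP708A2 had 17.1 and 23.6 CPM in dark SRDX, 1.1, 1.06 and 1.04 CPM in dark VP16 and 15.3, 12.1 and 9.53 CPM in dark hy5. The VP16 libraries were near 1 CPM and well below the rest, with a difference of -2.66 ± 0.18 (adjusted p = 3.6e-12), and the SRDX libraries were above hy5 by 0.69 ± 0.20 (adjusted p = 0.025). MRN1 had 11.6 and 10.6 CPM in dark SRDX, 0, 0.0880 and 0 CPM in dark VP16 and 2.53, 2.18 and 3.23 CPM in dark hy5, and its differences were 1.74 ± 0.31 and -1.82 ± 0.28, both called. CYP708A2 lost its dark SRDX call without dark SRDX replicate 2 or dark hy5 replicate 2 or 3 (adjusted p = 0.055 to 0.36).

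Of 9 members from salicylate and pipecolate immunity, SRDX was higher than hy5 in 3 in the dark and 7 at 4 h, with medians of 0.45 and 1.17, and VP16 was lower in 5 in the dark. ALD1, the aminotransferase that starts pipecolate synthesis, had 12.3 and 11.3 CPM in dark SRDX and 0.461, 0.455 and 0.497 CPM in dark hy5, and 50.9 and 52.0 CPM in SRDX and 3.5 and 2.4 CPM in hy5 at 4 h. SRDX was above hy5 at both times without overlap, by 3.12 ± 0.21 in the dark (adjusted p = 4.8e-12) and 3.75 ± 0.23 at 4 h (adjusted p = 3.7e-13). In dark VP16 it had 0.700, 0.176 and 0.285 CPM, which overlapped hy5 (-0.10 ± 0.19, adjusted p = 0.75). FMO1, the enzyme that N-hydroxylates pipecolate, reached at most 6.34 CPM in any library and was called in dark VP16 (-0.85 ± 0.24, adjusted p = 0.0098) and in SRDX at 4 h (0.82 ± 0.29, adjusted p = 0.048). EDS5, a plastid transporter needed for salicylate synthesis, was lower in dark VP16 (-1.17 ± 0.15, adjusted p = 7.2e-07). Its SRDX difference was 0.25 ± 0.16 in the dark (adjusted p = 0.37) and 1.17 ± 0.18 at 4 h (adjusted p = 1.6e-05). PBS3, which joins isochorismate to glutamate in the same pathway, had 5.78 and 7.40 CPM in SRDX and 0.856 and 1.3 CPM in hy5 at 4 h, a difference of 1.87 ± 0.27 (adjusted p = 6.1e-06), and differed by 0.06 ± 0.25 in the dark (adjusted p = 0.90). WRKY70, a transcription factor of salicylate responses, was called in dark VP16 (-0.81 ± 0.17, adjusted p = 0.00088) and in SRDX at 4 h (1.01 ± 0.21, adjusted p = 0.00074). FMO1 lost its dark VP16 call without dark hy5 replicate 3 (adjusted p = 0.057). FMO1 lost its 4 h SRDX call without 4 h SRDX replicate 1 or 2 or 4 h hy5 replicate 1 or 2 (adjusted p = 0.081 to 0.23).

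Receptor-like kinases, receptor-like proteins and TIR-domain proteins, placed by annotation, were a further set, and their part in immunity was not tested. Of 16 receptor-like kinases and receptor-like proteins, SRDX was higher than hy5 in 11 in the dark and 12 at 4 h, with medians of 0.88 and 0.84, and VP16 was lower in 9 in the dark. Of 4 TIR-domain resistance proteins the counts were 4, 3 and 2, with medians of 1.54, 1.45 and -0.99. Of 6 calcium channels, pumps and sensors, SRDX was higher in 2 in the dark and 5 at 4 h, and VP16 was lower in 5 in the dark, with a median of -1.02. Many of these genes belong to families with close copies, and their separate counts are uncertain where the copies share reads.

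The markers of wounding and touch, 8 genes, summed to 350 to 384 CPM in SRDX and 234 to 236 CPM in hy5 at 4 h. In the dark they summed to 216 to 311 CPM in SRDX, 131 to 141 CPM in VP16 and 229 to 266 CPM in hy5. The 7 heat shock markers summed to 153 to 199 CPM in dark VP16, 397 to 605 CPM in dark SRDX and 488 to 709 CPM in dark hy5, and 7 of 7 were called lower in dark VP16 and 1 of 7 in dark SRDX, each against hy5. Heat shock sums at 1.5 h were 899 to 1947 CPM in VP16, 807 to 1044 CPM in SRDX and 512 to 798 CPM in hy5. VP16 was thus above hy5 there, unlike in the dark. Wounding and touch sums at 1.5 h were 334 to 578 CPM in VP16, 504 to 505 CPM in SRDX and 360 to 379 CPM in hy5. None of these markers was at 0 in every library of a group, and their part in the defence results was not tested. On the wider list of jasmonate, defence and wounding genes, with 30 measured and 2 of them members, SRDX was higher than hy5 in 3 and lower in 3 in the dark. At 4 h SRDX was higher in 11 and lower in 4, and VP16 was lower in 15 and higher in 3 in the dark. On the glucosinolate list, with 12 measured, 2 of them members, SRDX was higher in 7 and lower in 1 in the dark, and VP16 was lower in 7 and higher in 1.

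Of 11 transcription factors outside the salicylate role, SRDX was higher than hy5 in 8 in the dark and 10 at 4 h, with medians of 0.69 and 1.04, and VP16 was lower in 6 in the dark. NAC042, a NAC factor known to restrain leaf ageing, had 33.9 and 25.7 CPM in dark SRDX, 0.10, 0.616 and 0.380 CPM in dark VP16 and 2.0, 1.82 and 1.49 CPM in dark hy5. The groups were separate, at 3.47 ± 0.20 in SRDX (adjusted p = 1.7e-13) and -1.03 ± 0.18 in VP16 (adjusted p = 8.0e-05). MYBL2, a MYB repressor of anthocyanin synthesis, was lower in dark VP16 (-0.83 ± 0.16, adjusted p = 0.00037) and higher in SRDX at 4 h (1.32 ± 0.20, adjusted p = 1.3e-05), and its dark SRDX difference of 0.33 ± 0.18 was not called (adjusted p = 0.27). ZFP5, a zinc finger factor of trichome and root hair growth, had 12.7 and 13.1 CPM in dark SRDX, 7.30, 6.95 and 7.21 CPM in dark VP16 and 6.60, 8.45 and 6.55 CPM in dark hy5. SRDX was higher by 0.77 ± 0.16, adjusted p = 0.0018, and the VP16 libraries fell within the range of hy5 (-0.00).

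Of 5 members for sulphate activation, iron and nitrate, SRDX was higher than hy5 in 3 in the dark and in 5 at 4 h, with medians of 0.76 and 1.28. APR1, an APS reductase of sulphate assimilation, was lower in dark VP16, with 3.90, 2.73 and 3.99 CPM, against 11.8, 11.4 and 14.1 CPM in dark hy5 (-1.57 ± 0.19, adjusted p = 3.2e-07). Dark SRDX had 10.02 and 11.7 CPM and overlapped hy5. AKN2, an APS kinase adjacent to CYP79B2, differed by 0.76 ± 0.14 in dark SRDX (adjusted p = 0.00068) and -0.61 ± 0.13 in dark VP16 (adjusted p = 0.00086). FRU, the bHLH regulator of iron uptake, was higher in SRDX by 0.86 ± 0.16 in the dark (adjusted p = 0.00061) and 1.15 ± 0.18 at 4 h (adjusted p = 1.7e-05). AKN2 lost its dark SRDX call without dark SRDX replicate 2 (adjusted p = 0.058).

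Of 9 wall and growth members, VP16 was lower than hy5 in 7 in the dark, with a median of -0.61, and SRDX was higher in 3 in the dark and 5 at 4 h, with medians of 0.38 and 0.87. XTH19, an enzyme that cuts and rejoins xyloglucan in growing walls, had 121 and 107 CPM in dark SRDX, 63.8, 55.5 and 59.3 CPM in dark VP16 and 127, 131 and 122 CPM in dark hy5. VP16 was below hy5 without overlap (-1.08 ± 0.19, adjusted p = 0.00013), and SRDX was not called (-0.15 ± 0.22, adjusted p = 0.72). At 4 h it had 191 and 229 CPM in SRDX and 55.2 and 84.7 CPM in hy5, a difference of 1.60 ± 0.24 (adjusted p = 1.1e-05). From the dark to 4 h it was higher in SRDX (0.87 ± 0.24, adjusted p = 0.0035) and lower in hy5 (-0.88 ± 0.22, adjusted p = 0.0012), with an interaction of 1.75 ± 0.32 (adjusted p = 0.00073). XTH24 of the same family differed by 0.54 ± 0.17 in dark SRDX (adjusted p = 0.043) and -0.61 ± 0.15 in dark VP16 (adjusted p = 0.0045). Among the 24 measured genes of xyloglucan modification, 2 of them members, SRDX was higher in 2 and lower in 6 in the dark and higher in 7 and lower in 3 at 4 h. BRU6, a GH3 enzyme that conjugates auxin to amino acids, was higher in SRDX at both times, by 0.73 ± 0.17 in the dark (adjusted p = 0.0065) and 1.79 ± 0.19 at 4 h (adjusted p = 3.2e-08), and its dark VP16 difference of 0.14 ± 0.15 was not called. XTH19 lost its light call without 4 h hy5 replicate 1 (adjusted p = 0.087). XTH24 lost its dark SRDX call without dark SRDX replicate 1 or dark hy5 replicate 1, 2 or 3 (adjusted p = 0.056 to 0.52). XTH24 lost its dark VP16 call without dark VP16 replicate 3 (adjusted p = 0.053). BRU6 lost its dark SRDX call without dark SRDX replicate 1 (adjusted p = 0.056).

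The 7 members that are late embryogenesis abundant proteins or a vicilin-like cupin, proteins of maturing seeds, were mostly called at 4 h. In dark SRDX limma called 0 of 7 against hy5, with a median of 0.36, where 1 was higher at an unadjusted p below 0.05 and edgeR and DESeq2 called 0. In dark VP16, 1 of 7 was lower than in hy5 and 2 of 7 lower than in dark SRDX. At 4 h, 6 of 7 were higher in SRDX than in hy5, with a median of 1.94. In 6 of 7 the level was higher at 4 h than in the dark within SRDX, and in 6 of 7 within hy5. ECP63 had 0.957 and 0.550 CPM in dark SRDX and 0.845, 0.364 and 1.08 CPM in dark hy5, which overlapped. At 4 h it had 31.0 and 23.7 CPM in SRDX and 6.57 and 13.5 CPM in hy5, without overlap, a difference of 1.43 ± 0.35 (adjusted p = 0.0039). ECP63 lost its 4 h SRDX call without 4 h SRDX replicate 1 or 4 h hy5 replicate 1 (adjusted p = 0.061 to 0.13). Its interaction between genotype and light was 1.42 ± 0.47 (adjusted p = 0.053). The 5 seed storage markers summed to 53.6 to 62.5 CPM in SRDX and 10.8 to 19.01 CPM in hy5 at 4 h, where 3 of 5 were called higher in SRDX. In the dark, where 0 of the 7 members were called in SRDX, they summed to 12.9 to 14.9 CPM in SRDX and 2.27 to 3.65 CPM in hy5, with 1 of 5 called higher. The sums in the other dark groups were also above hy5, so this was not particular to SRDX. They were 6.74 to 9.41 CPM in VP16, 9.30 to 15.1 CPM in OX and 6.92 to 18.6 CPM in Col. In the interaction 0 of these markers were called higher and 1 lower. None was at 0 in every library of a group, and their part in the result was not tested.

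Of 4 members for darkness, starvation and senescence, SRDX was higher than hy5 in 2 in the dark and 3 at 4 h, with medians of 0.83 and 1.21. Dark VP16 was higher than hy5 in 1 and lower in 1, with a median of -0.57. The member higher in dark VP16, against the direction of the choice at 1.5 h, was DIN2, a beta-glucosidase induced by darkness. It had 1006 and 611 CPM in dark SRDX, 370.2, 498 and 338 CPM in dark VP16 and 215, 269 and 287 CPM in dark hy5. Neither fusion line overlapped hy5, and the differences were 1.62 ± 0.21 for SRDX (adjusted p = 3.7e-06) and 0.63 ± 0.19 for VP16 (adjusted p = 0.015). Of 19 measured genes of sugar starvation, 1 a member, VP16 was higher than hy5 in 13 and lower in 0 in the dark, and SRDX was higher in 8 and lower in 1. AT4G32480, annotated with a domain of unknown function, was the other member called higher in dark VP16 (0.50 ± 0.13, adjusted p = 0.0039). DIN2 lost its dark VP16 call without dark VP16 replicate 2 or dark hy5 replicate 1 (adjusted p = 0.098 to 0.11).

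Outside the 13 roles, 3 more of the 20 members with the largest differences were enzymes or transporters. PLA2A, a phospholipase of membrane lipids, had 94.0 and 106 CPM in dark SRDX, 9.40, 7.48 and 6.17 CPM in dark VP16 and 7.91, 11.6 and 14.0 CPM in dark hy5. SRDX was far above hy5 (3.08 ± 0.22, adjusted p = 1.4e-11), while VP16 overlapped hy5 and was not called (-0.47 ± 0.20, adjusted p = 0.082). AT4G11320, a papain-type cysteine protease, had 745 and 599.6 CPM in dark SRDX, 61.8, 95.1 and 49.8 CPM in dark VP16 and 264, 281 and 281 CPM in dark hy5. Here the VP16 difference of -2.04 ± 0.18 (adjusted p = 1.8e-09) stood beside an SRDX difference of 1.28 ± 0.21 (adjusted p = 8.5e-05). The MATE efflux transporter AT4G21903 had 24.3 and 23.4 CPM in SRDX and 0.428 and 0.549 CPM in hy5 at 4 h (4.06 ± 0.19, adjusted p = 1.1e-15). KCS12, a synthase of very long chain fatty acids and a member further down the order, had 3.26, 4.58 and 3.55 CPM in VP16 and 22.3, 20.497 and 14.3 CPM in hy5 at 1.5 h, against 33.2, 31.0 and 22.4 CPM in VP16 and 39.6, 42.4 and 39.3 CPM in hy5 in the dark. Its dark VP16 difference was -0.49 ± 0.16 (adjusted p = 0.028). KCS12 lost its dark VP16 call without dark VP16 replicate 3 or dark hy5 replicate 1, 2 or 3 (adjusted p = 0.053 to 0.20).

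**Figure D3:**
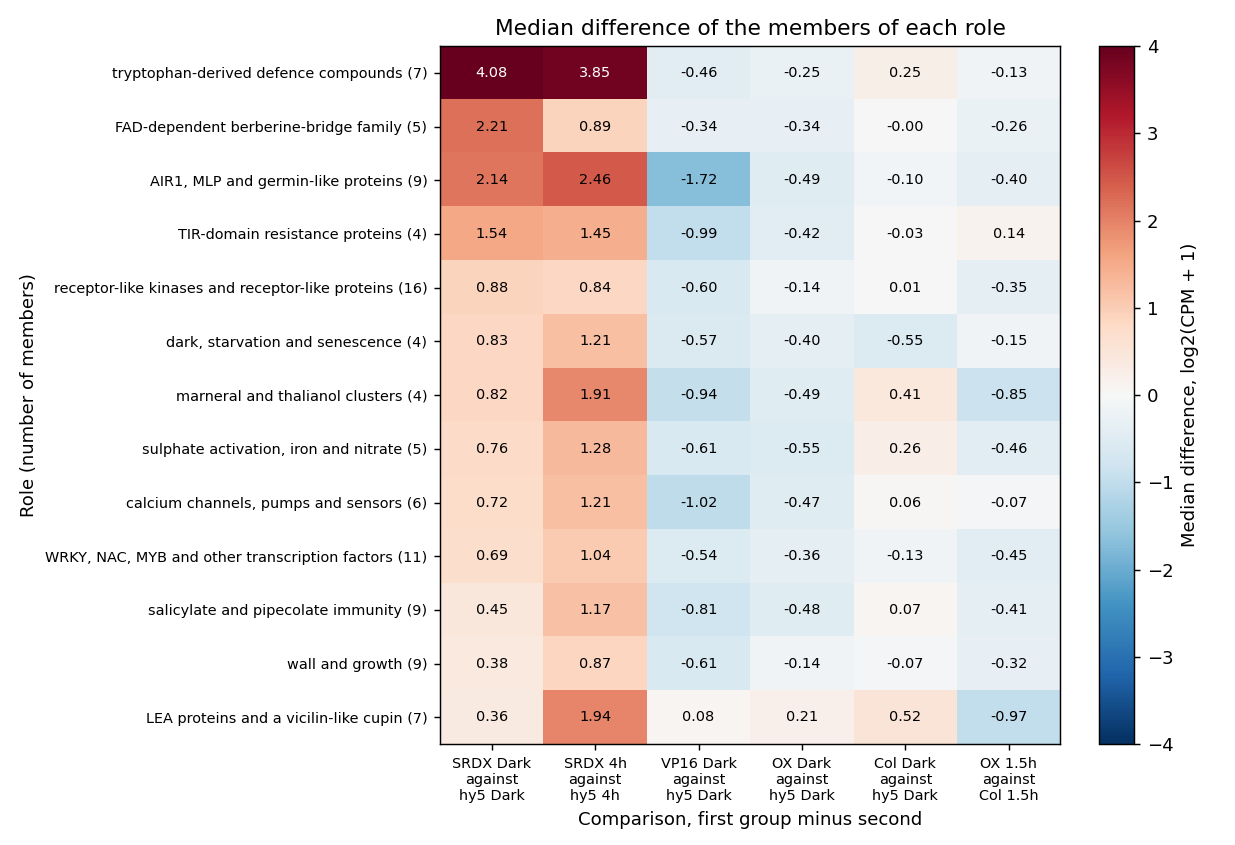
Each cell is the median difference of log2(CPM + 1), first group minus second, over the members of a role, with the number of members in brackets. In dark SRDX the medians run from 4.08 for tryptophan-derived compounds to 0.36 for the LEA set, and in dark VP16 from 0.08 for the LEA set to -1.72 for AIR1, MLP and germin-like proteins.

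OX, with a tagged HY5 that carries neither VP16 nor SRDX, lay on the side of VP16 in more members than on the side of SRDX. In the dark OX was lower than hy5 in 46 members and higher in 9, against 6.76% and 6.72% of all genes, with a median of -0.24. The 7 heat shock markers, all called lower in dark OX than in hy5, summed to 234 to 247 CPM in dark OX and 488 to 709 CPM in dark hy5, and their part in this count was not tested. At 1.5 h, where OX was compared with Col because hy5 was used in the choice, OX was lower in 66 and higher in 7, against 9.13% and 10.8% of all genes, with a median of -0.30. ZFP5 had 0.60, 0.789 and 0.334 CPM in dark OX and 0, 0.0776 and 0.243 CPM in OX at 1.5 h, against 6.60, 8.45 and 6.55 CPM in dark hy5 and 5.09, 3.52 and 3.93 CPM in Col at 1.5 h. OX was below without overlap at both times, with differences of -2.38 ± 0.14 in the dark (adjusted p = 5.0e-13) and -2.22 ± 0.14 at 1.5 h (adjusted p = 8.1e-12). PXMT1 had 1.60, 1.58 and 3.46 CPM in dark OX, a difference of -2.404 ± 0.18 from hy5 (adjusted p = 4.1e-11), and was also lower in OX than in Col at 1.5 h (-2.03 ± 0.18, adjusted p = 2.5e-09).

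CYP79B2 and CYP79B3 were lower in OX at both times. CYP79B3 had 22.1, 17.0 and 21.4 CPM in dark OX and 55.6, 52.8 and 54.4 CPM in dark hy5, a difference of -1.39 ± 0.16 (adjusted p = 2.4e-07). At 1.5 h it had 5.20, 7.60 and 6.23 CPM in OX and 18.3, 21.3 and 31.1 CPM in Col, a difference of -1.72 ± 0.16 (adjusted p = 5.1e-09), with no overlap at either time. CYP79B2 differed by -1.21 ± 0.15 and -1.45 ± 0.15, and over the 7 tryptophan members the medians were -0.25 and -0.13, with 3 called lower each time. The fatty acid desaturase ADS4 had 3.20, 3.02 and 3.34 CPM in dark OX, against 13.5, 15.1 and 13.01 CPM in dark hy5 (-1.83 ± 0.19, adjusted p = 4.2e-08). ECS1 ran the other way, with 8.60, 6.18 and 8.92 CPM in dark OX and 3.38, 2.36 and 2.65 CPM in dark hy5, a difference of 1.22 ± 0.21 (adjusted p = 0.00017), and with OX above Col at 1.5 h (1.39 ± 0.21, adjusted p = 1.9e-05). PP2-A13, a phloem lectin-like protein, was also higher in OX, by 0.52 ± 0.15 in the dark (adjusted p = 0.023). PP2-A13 lost its dark OX call without dark OX replicate 2 or dark hy5 replicate 1 (adjusted p = 0.10 to 0.15).

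The wild type and hy5 differed by a median close to 0 over the members. In the dark Col was higher in 9 and lower in 9, against 0.859% and 1.16% of all genes, with a median of -0.01. With the replicate number as a block, which paired libraries in this comparison, the counts were 18 higher and 18 lower, against 2.37% and 4.59% of all genes in that fit. With all libraries and no block, 18 members in all were called, against 2.02% of all genes. Without dark Col replicate 1, 9 members were called, against 0.716% of all genes, without dark Col replicate 2, 11, against 0.792%, and without dark hy5 replicate 2, 10, against 0.884%. AIR1 had 29.0, 39.4 and 18.4 CPM in dark Col, above the 9.52, 8.0 and 13.1 CPM of dark hy5 (1.38 ± 0.29, adjusted p = 0.0074), while OX, with 3.5, 7.23 and 2.56 CPM, was below hy5 (-1.11 ± 0.29, adjusted p = 0.0094). Col and OX thus lay on opposite sides of hy5 for AIR1. ADS4, lower in dark OX as above, was likewise higher in dark Col (0.71 ± 0.19, adjusted p = 0.039). PBS3 was higher in dark Col (1.31 ± 0.22, adjusted p = 0.00084), and its dark OX difference of -0.28 ± 0.22 was not called. AT5G38910 was lower in both, with -2.45 ± 0.15 in dark OX (adjusted p = 5.0e-13) and -1.66 ± 0.15 in dark Col (adjusted p = 2.2e-08). The invertase-family gene cwINV6 was lower in dark OX (-0.67 ± 0.13, adjusted p = 0.00060) and higher in dark Col (0.59 ± 0.13, adjusted p = 0.010). The AAA-ATPase AATP1 had 7.07 and 7.04 CPM in dark SRDX, 0.900, 0.704 and 0.664 CPM in dark VP16, 0.900, 1.58 and 1.56 CPM in dark OX, 5.29, 5.37 and 5.66 CPM in dark Col and 2.23, 1.82 and 2.90 CPM in dark hy5. SRDX and Col were above hy5 and VP16 and OX below it, and no library of these 4 groups overlapped hy5. AIR1 lost its dark OX call without dark OX replicate 3 or dark hy5 replicate 3 (adjusted p = 0.060 to 0.077). AIR1 lost its dark Col call without dark Col replicate 2 or dark hy5 replicate 2 (adjusted p = 0.062 to 0.086). ADS4 lost its dark Col call without dark Col replicate 1, 2 or 3 or dark hy5 replicate 1, 2 or 3 (adjusted p = 0.057 to 0.15). cwINV6 lost its dark Col call without dark Col replicate 1 or dark hy5 replicate 2 or 3 (adjusted p = 0.052 to 0.076).

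**Figure D4:**
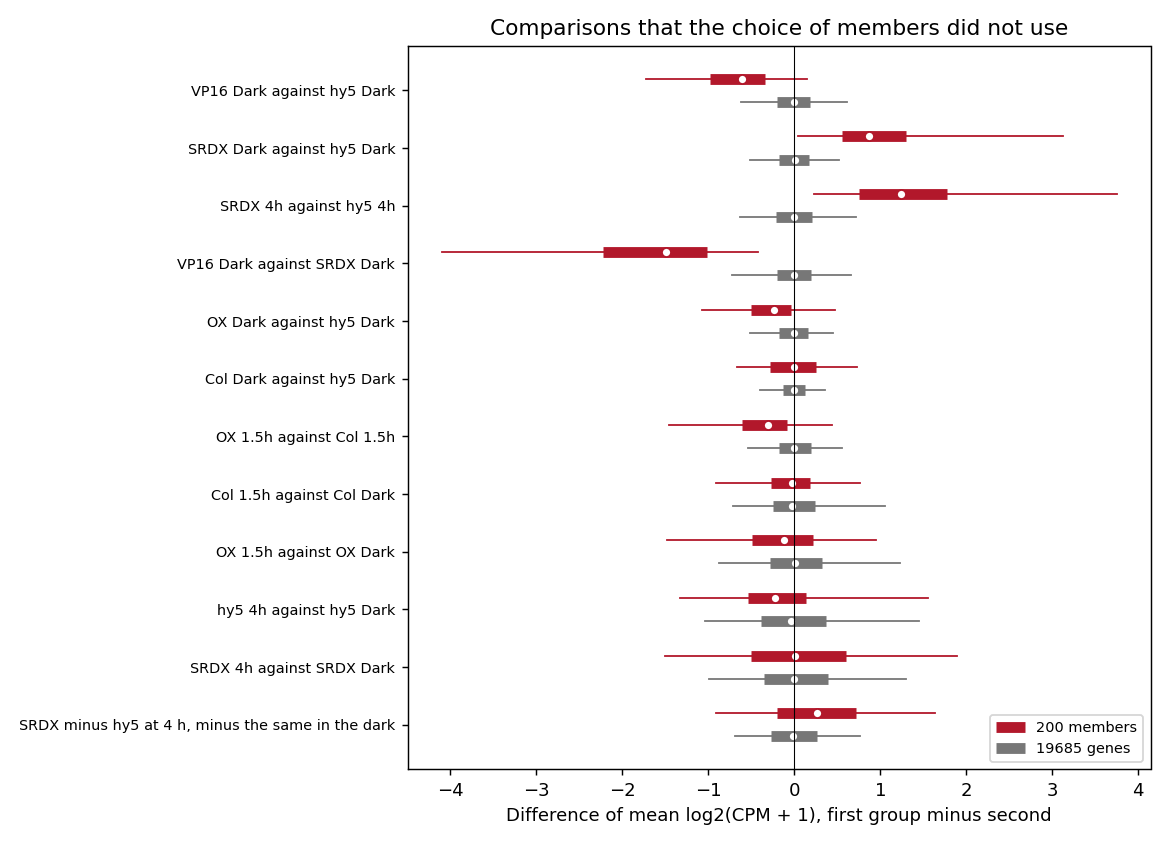
For each comparison, the upper bar gives the 200 members and the lower bar all 19685 genes, with the median as a point, the middle 50% as a thick bar and the span from the 5th to the 95th percentile as a line, in differences of mean log2(CPM + 1). Members lie apart from all genes where SRDX or VP16 is compared with hy5 or with each other, with medians of 0.87, 1.24, -0.61 and -1.49. The OX medians are -0.24 against hy5 in the dark and -0.30 against Col at 1.5 h. Member medians lie near those of all genes for Col against hy5, at -0.01, and for SRDX at 4 h against dark SRDX, at 0.01. In both of these comparisons the line of the members is longer than that of all genes. For dark Col against dark hy5 it runs from -0.67 to 0.73 for members and from -0.39 to 0.35 for all genes.

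Members were called in both directions between light and dark in each genotype tested, in shares of 12% to 31%, against 17.9% to 26.3% of all genes, and nothing particular to the members is read from these counts. At 1.5 h against dark, Col was higher in 24 members (12%) and lower in 30 (15%), against 18.0% and 17.9% of all genes, and OX was higher in 32 (16%) and lower in 58 (29%), against 23.6% and 22.6%. At 4 h against dark, hy5 was higher in 25 and lower in 62 (31% of members), against 24.5% and 26.3%, and SRDX was higher in 52 (26%) and lower in 46 (23%), against 23.1% and 23.6%. The dark hy5 and dark SRDX libraries also served the comparisons between genotypes. RTFL21, a small peptide of the ROTUNDIFOLIA family, had 0.718, 0.776 and 0.655 CPM in Col at 1.5 h and 23.9, 24.7 and 30.8 CPM in dark Col, a difference of -3.99 ± 0.16 (adjusted p = 2.5e-18). In hy5 at 4 h it had 1.28 and 0.686 CPM, against 27.6, 26.3 and 29.1 CPM in dark hy5 (-3.87 ± 0.18, adjusted p = 8.7e-17), and in SRDX 3.63 and 4.48 CPM at 4 h, against 24.96 and 17.9 CPM in the dark (-2.14 ± 0.20, adjusted p = 7.0e-10). Light lowered it in each of these genotypes without overlap.

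APR1 rose with light, with 30.1, 22.6 and 26.2 CPM in Col at 1.5 h and 9.88, 5.43 and 10.2 CPM in dark Col (1.56 ± 0.19, adjusted p = 7.5e-08), and likewise in OX (1.95 ± 0.19, adjusted p = 6.0e-10). CYP708A2 was higher at 4 h than in the dark both in hy5 (1.78 ± 0.20, adjusted p = 1.0e-08) and in SRDX (2.44 ± 0.22, adjusted p = 2.6e-10). ECS1 had 163 and 127 CPM in hy5 at 4 h and 3.38, 2.36 and 2.65 CPM in dark hy5, a difference of 5.26 ± 0.24 (adjusted p = 2.1e-17), and SRDX, with 151 and 113 CPM at 4 h, overlapped hy5 there (-0.14 ± 0.26, adjusted p = 0.78). Among the 9 wall and growth members, 5 were lower in Col, 6 in OX, 7 in hy5 and 5 in SRDX after light.

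The difference between SRDX and hy5 was unequal between 4 h and darkness for 47 members, against 10.1% of all genes, by a test of the interaction that was added after the data were seen. It was larger at 4 h in 35 and smaller in 12, against 4.34% and 5.74% of all genes, with a median of 0.26 over the members. Without SRDX replicate 1 at 4 h, fewer members and fewer of all genes were called. That fit leaves 1 SRDX library at 4 h, so nothing particular to the members is read from it. Of the tryptophan members, CYP82C2 had 34.3 and 27.9 CPM in SRDX and 0.357 and 0.961 CPM in hy5 at 4 h, so that its difference was 4.29 at 4 h and 6.92 in the dark (interaction -2.63 ± 0.33, adjusted p = 3.7e-06). RTFL21 was also on the list of unequal members, with an interaction of 1.73 ± 0.27 (adjusted p = 0.00012). In the same direction, MSRB7, a methionine sulphoxide reductase, had 53.1 and 49.8 CPM in SRDX and 10.7 and 11.8 CPM in hy5 at 4 h, and 32.1 and 40.8 CPM in SRDX and 39.4, 41.9 and 34.1 CPM in hy5 in the dark. The groups were separate at 4 h (2.099 ± 0.17, adjusted p = 1.2e-10) and overlapped in the dark (-0.08 ± 0.15, adjusted p = 0.79).

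**Figure D5:**
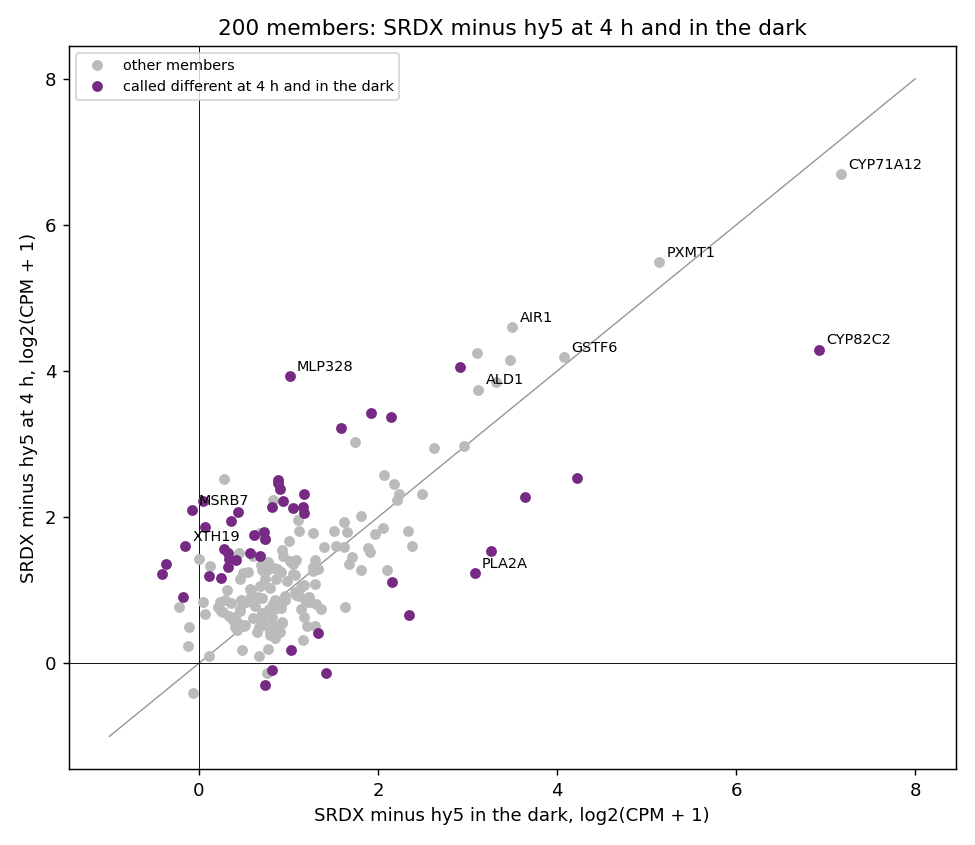
Each point is a member, with SRDX minus hy5 in the dark on the x axis and at 4 h on the y axis, both as differences of mean log2(CPM + 1), and purple marks the 47 members whose difference is called unequal. The grey line marks equal differences, and CYP82C2 lies below it at 6.92 and 4.29, while MSRB7 lies above it at -0.08 and 2.099.

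By gene family, cytochrome P450 genes named CYP were 12 of the 200 members, 6% of them, against 0.726% of all genes. WRKY and NAC genes were 4 each, 2% of members, against 0.264% and 0.300% of all genes. UGT genes were 3, 1.5%, against 0.259%, and XTH genes 2, 1%, against 0.107%. Next to another member among the measured genes lay 28 members, 14%, in 13 runs, where members are 1.02% of all genes. The share for other sets of genes was not computed. The longest run was AT1G26380, AT1G26390, AT1G26410 and AT1G26420, and others were GSTF7 with GSTF6, MLP328 with MLP329, AKN2 with CYP79B2, and CYP71A16 with MRN1. Reads may be shared within the AT1G26380, GSTF and MLP runs, as given above. Members lay in 124 of 238 windows of 500 kb that hold a measured gene, with 55, 32, 26, 42 and 45 on chromosomes 1 to 5. Another annotated gene overlapped 31 members. Reads are stranded, but how the strand was used in counting is not given in the sources used here.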

How the data were processed

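Members, gene lists, roles and the W-box motif were chosen with earlier results of these data known. Per the submitters' processing notes, reads were handled with HTSeq 0.6.0, edgeR 3.16.5, SAMtools 0.1.19.0, TopHat2 2.0.11 over Bowtie2 2.2.2.0 and CASAVA 1.8.2, on build TAIR10. The authors deposited a table of CPM values for 19685 genes and 32 libraries, in which each column summed to 925942 to 1066829, so that the values are a scaled signal rather than plain CPM; the planned test was kept. The authors also deposited log2 fold changes, which were only described.

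All other values were computed from that table. Differences of mean log2(CPM + 1), with a pseudocount of 1, were tested with limma 3.58.1 in R 4.3.3 over all 32 libraries, 1 mean per group, with a trended variance. P-values were adjusted over 19685 genes within each of 12 comparisons and called below 0.05. None of the genes was removed by the filter on low values. Whole reads were recovered for 100% of values within 0.01 reads, and edgeR 4.0.16 and DESeq2 1.42.0 were run on them as alternatives. They rest on 7499581 to 21420680 reads in genes per library. A floor of 3 reads, 0.137 to 0.394 CPM, was used for groups at 0 and covers counting error only. The script was tested on simulated data.

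Genes were named by a rule: the 20 members with the largest SRDX minus VP16 at 1.5 h, members on a pathway list, up to 5 called members per direction and comparison with the smallest adjusted p, no overlap of libraries and a mean of at least 5 CPM, and the 3 genes nearest each limit. Of the members this rule allows, those with a clear role were described, and other examples (FMO1, AKN2, MLP328, CYP71A16, AT1G26410, AT1G26420, AT4G29700, AT4G15390 and the 5 members without a call) were chosen after their values were seen. Gene names and positions came from RefSeq for TAIR10.1, in which all 200 members were found, 99 with a symbol.

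Replicate numbers were checked as pairs. The deviations of same-numbered libraries correlated above 0.1 in all 3 pairs for dark Col with dark hy5 (0.243 to 0.393) and for OX at 1.5 h with dark OX (0.135 to 0.453), which rests on the data alone, since no batch or day is named in the labels. Alternatives were another scaling, pseudocounts, filters, left-out libraries, the replicate block and other tools.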

Additional observations from a re-analysis of the deposited data

Results flagged for a closer look

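By the interaction term in limma, SRDX minus hy5 differed between 4 h and the dark for 47 members. The term was 2.18 for MSRB7, 2.92 for MLP328, 1.73 for RTFL21, 1.28 for AT4G29700 and 1.18 for AT4G15390, whose SRDX difference was larger at 4 h. It was -2.63 for CYP82C2, -1.69 for AT1G26380 and -1.85 for PLA2A, whose SRDX difference was larger in the dark. The 2 SRDX libraries and the 2 hy5 libraries at 4 h are the whole basis for the light side of each value.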

How the results depend on the processing

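Over 6199 alternative values for 467 called differences of named genes, 5808 kept their direction and their call, 391 kept their direction only (282 of them with 1 library left out), and 0 reversed. Counts of called members stayed within 1.5 times the reported count in all alternatives but those given here. With a filter at a mean of 5 CPM, which leaves 129 members to be tested, 81 members were lower in dark VP16 than in hy5, 119 were lower in dark VP16 than in dark SRDX, and 30 had an unequal SRDX difference at 4 h and in the dark. Of all genes kept by that filter, 12.1%, 9.77% and 11.8% were called, in the same order. A replicate-number block in the compared groups alone gave 36 called members for dark OX (8 higher, 28 lower), against 7.16% of all genes. For dark Col it gave 36 (18 higher, 18 lower), against 6.96%. The block moved no other count of members by over 1.5 times. DESeq2 called 28 for dark Col (16 higher, 12 lower), against 3.09% of all genes. The cause of these shifts was not tested.

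With each library left out in turn, the called members numbered 98 to 116 lower in dark VP16 against hy5, 111 to 129 higher in dark SRDX, 133 to 156 higher in SRDX at 4 h, and 163 to 182 lower in dark VP16 against dark SRDX. In either direction they numbered 38 to 48 for dark OX, 9 to 17 for dark Col, 54 to 80 for OX against Col at 1.5 h, 45 to 52 for light in Col, 80 to 91 for light in OX, 65 to 83 for light in hy5, 83 to 84 for light in SRDX and 31 to 45 for the unequal SRDX difference. Of all genes in the same fits, 8.4% to 9.88% were called lower in dark VP16 against hy5. In either direction the shares were 7.6% to 15.4% for dark OX and 0.716% to 2.6% for dark Col. For OX against Col at 1.5 h they were 12.3% to 23.2%. For light they were 29.9% to 33% in Col and 42% to 43.6% in OX. Where leaving out 1 library left 1 in a group, that group was assumed to vary like the others. This holds for some fits in every range with SRDX or with hy5 at 4 h. The shares of all genes are therefore not given for those ranges. Nothing particular to the members is read from them.

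The choice of members itself moved more. With a pseudocount of 0.25, 390 genes met both thresholds, and 133 of the 200 kept were shared with those described here. With thresholds of 1, 39 genes did. With median-of-ratios scaling, 221 did and all 200 were shared. With 1 library left out, 214 to 257 did, and 177 to 187 of the 200 were shared. Depth limits what can be said of the lowest members, since 1 read was worth up to 0.131 CPM.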
